A study of Mus musculus with 72 samples.

Results

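Transcripts of the liver clock and of other liver functions were followed over the circadian day in mice fed a methionine- and choline-deficient (MCD) diet. All 18 liver libraries labelled MCD were taken, of 36 liver libraries and 72 libraries in all. They covered circadian time (CT) 0, 4, 8, 12, 16 and 20, with 3 libraries at each time, 2 from males (numbers 1 and 2) and 1 from a female (number 3). CT0 is the start of the subjective day and CT12 the start of the subjective night, when mice are active and feed. The other 18 liver libraries, from mice on a control diet of equal energy content sampled at the same times with the same numbers of each sex, were used only where the diets are compared. In both groups C57BL/6 mice, 8 to 12 weeks old when bought, were housed singly and ate freely. The diets were given for 11 days, of which 10 had 12 h of light per day and the last was spent in constant darkness. No mouse carried a transgene or an induced mutation per the labels. The protocol text speaks of male mice, while the sample labels name 1 female per time and were followed. MCD takes away 2 nutrients at once, methionine and choline, whose parts cannot be told apart. RNA came from a piece of the left lobe, a bulk sample in which fewer cells of a type and less RNA per cell cannot be told apart.

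The liver clock is a loop of transcription factors. ARNTL pairs with CLOCK or NPAS2 and binds E-box elements to switch on the Per and Cry genes, whose proteins return to block the pair. The nuclear receptors REV-ERB (Nr1d1, Nr1d2) and ROR (such as Rora) bind shared response elements, from which REV-ERB represses and ROR activates Arntl, and the proline- and acid-rich (PAR) bZIP factors DBP, TEF and HLF act through D-box elements against NFIL3. In liver these factors, together with feeding, hormones and body temperature, time the use of fuels, bile acid synthesis and drug metabolism over the day. An MCD diet withholds the methyl donor methionine and the choline needed to make phosphatidylcholine and is used to produce fatty liver in rodents.

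Reads assigned to genes totalled 55.5 to 86.7 M per MCD library (median 64.5 M), and levels are given as CPM, read counts divided by the library size after TMM scaling. The 6 hepatocyte markers (Alb, Ttr, Apoa1, Serpina1a, Cyp2e1 and Tat) summed to 60927.9 to 129628 CPM in every MCD library, and those of 8 other cell types to at most 969 CPM. Libraries fell into 2 kinds by mt-Nd6, a mitochondrial transcript, which lay at 33.0 to 96.8 CPM in 13 MCD libraries and at 380.3 to 438 CPM in 5 (CT0 2, CT4 1, CT8 2, CT12 3 and CT20 1). The high kind was thus found once at each of 5 of the 6 times and not at CT16, where all libraries were of the low kind. A control library at CT8 (a) went against its label for Fgf21, with 16.8 CPM against 0.402 to 4.65 CPM in the 17 other controls and at least 13.3 CPM on MCD. It enters only the comparison of the diets, whose counts are given with and without it. The labels do not say that libraries of a group came from separate mice, so p-values measure the spread between these libraries.

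A gene was called rhythmic when the 24 h cosine and sine components of its 6 time means passed edgeR's quasi-likelihood test with a Benjamini-Hochberg adjusted p under 0.05. Range is the fitted difference between peak and trough in log2, and peak is the fitted time of the highest level. Errors of both are approximate standard errors worked out from the F statistic of that test, with equal errors assumed for the cosine and sine components. Errors of CPM are standard deviations over the 3 libraries of a time. Of 19573 genes tested, 5365 were called (27.4%), and 1281 of these had a range of at least 1 log2 (6.54%), a change of at least 2-fold between trough and peak. The median range was 0.62 log2 for called genes and 0.45 log2 for all genes tested. A range of at least 2 log2 was reached by 355 called genes and one of at least 4 log2 by 71. The broader test for any difference among the 6 times called 3023 genes (15.4%), of which 2989 were also called for a 24 h rhythm and 34 were not. Without replicate 1, 2 or 3 the rhythm count fell to 1793, 2304 and 2534, fits that hold 12 libraries, and 3440 of the 5365 genes were called without each single library in turn.

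Peaks lay at all hours, with a rise to 286 to 360 genes per hour from CT16 to CT20 and another to 246 to 291 per hour from CT5 to CT10. In windows of 4 h centred on the sampled times, 693 called genes peaked around CT0 (3.54% of genes tested), 825 around CT4 (4.21%), 1057 around CT8 (5.4%), 695 around CT12 (3.55%), 986 around CT16 (5.04%) and 1109 around CT20 (5.67%). By single hours the fullest bin was CT18 to CT19 with 360 genes, and within the day it was CT9 to CT10 with 291. Genes with a range of at least 1 log2 numbered 182, 150, 220, 175, 255 and 299 in the same 6 windows. The order of the fullest windows depended on the setting. Around CT8 and CT20 peaked 982 and 875 genes with library totals alone, 1378 and 1303 with DESeq2, and 763 and 695 in the libraries of low mt-Nd6, against 1057 and 1109 here.

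**Figure D1:**
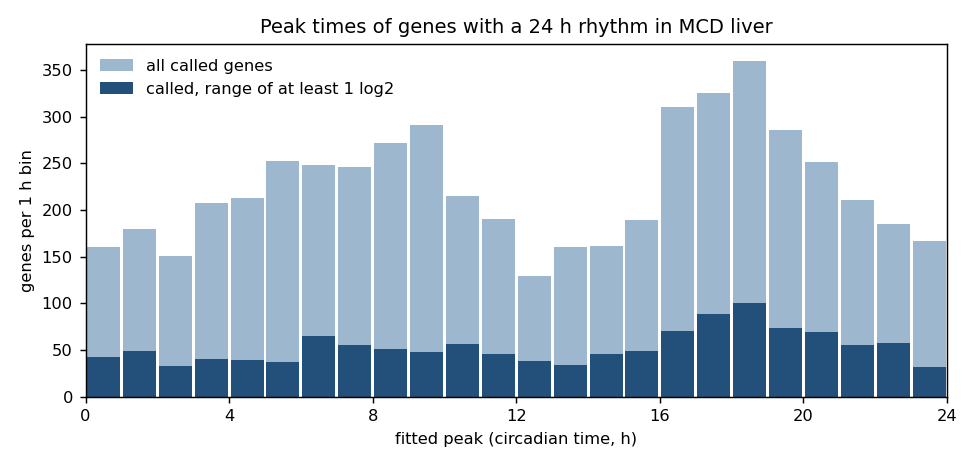
Number of called genes (vertical axis) by fitted peak in bins of 1 h (horizontal axis, circadian time), for all 5365 called genes (light bars) and for the 1281 with a range of at least 1 log2 (dark bars). The highest light bar is that from CT18 to CT19 (360 genes), and the highest within the day is that from CT9 to CT10 (291 genes).

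The core clock ran with large ranges on this diet. Of 6 activators, 5 were called, all but Arntl2, with peaks at night, and all 10 repressors were called (83.3% and 100%, against 27.4% of all genes). Arntl (ENSMUSG00000055116.9), the partner shared by both forms of the activating pair, had levels in CPM of 34.6, 34.5 and 39.8 at CT0, 9.18, 6.10 and 8.12 at CT4, 1.15, 1.10 and 0.916 at CT8, 3.16, 4.26 and 9.01 at CT12, 37.4, 33.6 and 37.9 at CT16 and 47.1, 52.0 and 51.7 at CT20. The 3 libraries at CT8 were the lowest of the 18, those at CT20 the highest, and neither overlapped with any other time. Its range was 5.39 ± 0.24 log2 with a peak at CT20.2 ± 0.169 h (edgeR adjusted p = 2.73e-08). Npas2, the alternative partner of ARNTL, had a range of 8.28 ± 0.39 log2 at CT21.6, from 0.0870 ± 0.0789 CPM at CT12, where 1 library had no count, to 30.4 ± 5.83 CPM at CT20. Clock had a smaller range (1.47 ± 0.11 log2 at CT21.3), and Rora the smallest of the called activators (0.67 ± 0.11 log2 at CT20.1). Arntl2 was not called (0.84 log2, edgeR adjusted p = 0.101).

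The repressors peaked in sequence from morning to night. Nr1d1 (ENSMUSG00000020889.12), which encodes REV-ERB alpha, had levels in CPM of 12.0, 3.51 and 41.5 at CT0, 90.2, 149 and 160.1 at CT4, 56.8, 105 and 75.0 at CT8, 14.9, 27.3 and 13.2 at CT12, 3.87, 1.94 and 2.52 at CT16 and 5.76, 2.66 and 7.34 at CT20. All 3 libraries at CT4 lay above every library of CT0, CT12, CT16 and CT20, while the libraries at CT0 spread from 3.51 to 41.5 CPM. Its peak came at CT5.73 ± 0.410 h with a range of 5.51 ± 0.59 log2 (edgeR adjusted p = 0.000125). Nr1d2 followed at CT7.94 (2.63 ± 0.20 log2) and Bhlhe41, an E-box binding repressor, at CT7.96 (4.50 ± 0.50 log2). Ciart, which acts on the ARNTL-CLOCK pair, rose from 0.438 ± 0.0876 CPM at CT0 to 30.7 ± 11.0 CPM at CT8 and peaked at CT9.79 (5.83 ± 0.36 log2). Per3 and Per1 peaked at CT10.3 and CT10.6 with ranges of 5.15 ± 0.22 log2 and 3.35 ± 0.35 log2. Per2 came later, at CT12.8 ± 0.536 h (3.23 ± 0.45 log2, edgeR adjusted p = 0.000802), with levels in CPM of 23.3, 30.5 and 4.49 at CT0, 12.5, 29.4 and 16.4 at CT4, 120.5, 65.9 and 74.9 at CT8, 137, 86.9 and 146 at CT12, 95.2, 98.4 and 126 at CT16 and 28.8, 50.4 and 23.6 at CT20. Its 9 libraries from CT8 to CT16 were the highest of the 18 and did not overlap with the others. Bhlhe40 and Cry2 had the small ranges of 1.22 and 0.88 log2 at CT12.9 and CT13.2, and Bhlhe40 lost its call without MCD CT0 3 or CT12 1 (edgeR adjusted p of at most 0.0747). Cry1 was the last, with a range of 3.62 ± 0.22 log2 at CT17.7 ± 0.229 h (edgeR adjusted p = 6.34e-07). Its levels in CPM were 25.6, 32.3 and 27.6 at CT0, 3.31, 6.17 and 5.08 at CT4, 14.9, 9.30 and 8.66 at CT8, 24.0, 21.4 and 35.0 at CT12, 67.3, 58.3 and 64.9 at CT16 and 51.8, 63.6 and 77.1 at CT20, with the 6 libraries of CT16 and CT20 above all others.

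Among the PAR bZIP factors and their antagonist, 3 of 4 genes were called (75%, against 27.4% of all genes). Dbp (ENSMUSG00000059824.13) had levels in CPM of 0.327, 0.878 and 0.712 at CT0, 51.6, 92.9 and 55.6 at CT4, 158, 205 and 148 at CT8, 56.7, 63.2 and 23.5 at CT12, 4.58, 5.76 and 2.28 at CT16 and 2.06, 1.77 and 1.31 at CT20, a mean of 171 ± 30.7 CPM at CT8 against 0.639 ± 0.282 CPM at CT0. The times CT0, CT4, CT8, CT16 and CT20 did not overlap with one another, and the CT12 libraries overlapped with those of CT4 alone. The range of 7.92 ± 0.34 log2 is a 242-fold change, with a peak at CT8.58 ± 0.162 h (edgeR adjusted p = 2.73e-08). Tef had a range of 3.38 ± 0.14 log2 at CT10.2. Nfil3, which competes with these factors for D-boxes, peaked at CT19.1 with a range of 2.85 ± 0.18 log2, on the other side of the day from Dbp. Hlf was not called (range 0.78 log2, edgeR adjusted p = 0.167).

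**Figure D2:**
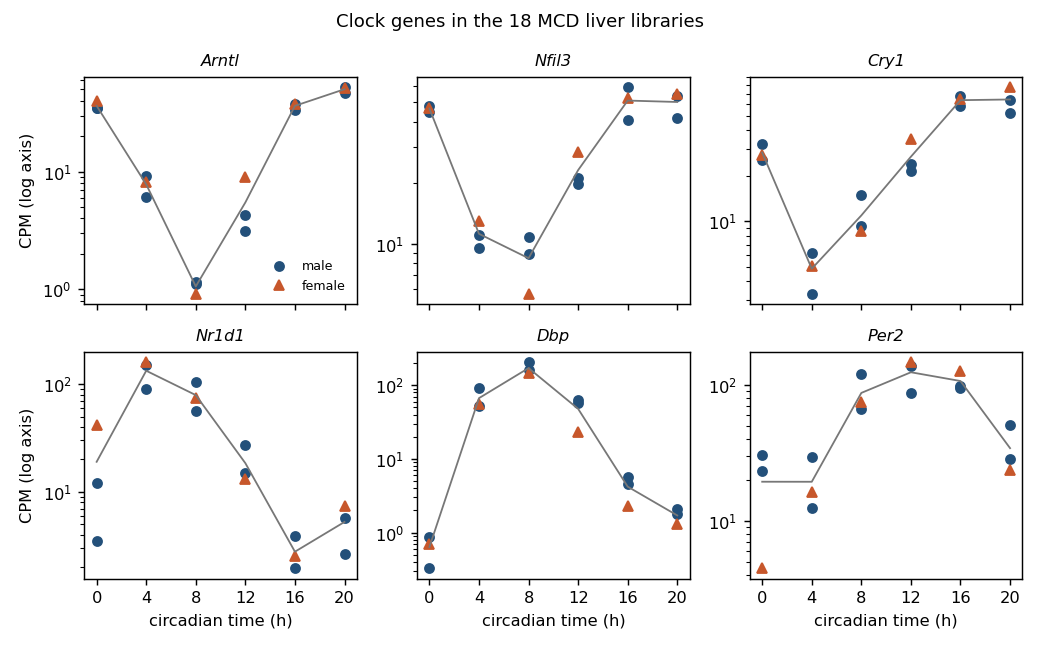
CPM (vertical log axes) of 6 clock genes against circadian time in h (horizontal axes) in the 18 MCD libraries, with males as circles, females as triangles and lines through the means of the 3 libraries of a time. Arntl is lowest at CT8, where Dbp is highest, Nr1d1 is highest at CT4, Cry1 is high at CT16 and CT20, and Nfil3 from CT16 through CT20 to CT0.

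The promoters of 4 of these genes are shown because they peak in different windows and hold 1 of the 3 elements named above in the 250 bases before the annotated start (RefSeq, build GRCm38.p6; the sequences end at the base before the start). Capitals mark matches to the E-box CACGTG, the D-box TTANGTAA or the core of the REV-ERB and ROR element (RRE core), TAGGTCA or TGGGTCA, searched on both strands. Ciart (peak CT9.79; chr3:95882229-95882478, minus strand) holds 3 E-boxes, whose first bases lie 116, 58 and 44 bases before the start. Per3 (peak CT10.3; chr4:151044666-151044915, minus strand) holds 2 D-boxes, at 205 and 158 bases. Cry1 (peak CT17.7; chr10:85185055-85185304, minus strand) holds 1 E-box at 60 bases, and Nfil3 (peak CT19.1; chr13:52981040-52981289, minus strand) 1 RRE core at 12 bases.
Ciart: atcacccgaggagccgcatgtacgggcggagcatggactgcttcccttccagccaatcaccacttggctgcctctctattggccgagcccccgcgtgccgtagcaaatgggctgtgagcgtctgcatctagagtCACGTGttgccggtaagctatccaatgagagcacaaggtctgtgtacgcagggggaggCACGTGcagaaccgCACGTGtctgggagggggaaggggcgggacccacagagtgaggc
Per3: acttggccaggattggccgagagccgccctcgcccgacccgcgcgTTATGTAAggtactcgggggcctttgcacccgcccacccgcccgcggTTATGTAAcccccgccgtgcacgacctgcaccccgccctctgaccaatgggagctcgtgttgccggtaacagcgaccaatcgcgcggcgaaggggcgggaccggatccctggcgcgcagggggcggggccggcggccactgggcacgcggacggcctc
Cry1: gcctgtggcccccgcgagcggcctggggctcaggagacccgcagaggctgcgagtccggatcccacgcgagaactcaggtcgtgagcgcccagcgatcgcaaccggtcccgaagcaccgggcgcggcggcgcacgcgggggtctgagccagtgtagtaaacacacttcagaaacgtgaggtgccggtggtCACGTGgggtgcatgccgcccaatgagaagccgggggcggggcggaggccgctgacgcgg
Nfil3: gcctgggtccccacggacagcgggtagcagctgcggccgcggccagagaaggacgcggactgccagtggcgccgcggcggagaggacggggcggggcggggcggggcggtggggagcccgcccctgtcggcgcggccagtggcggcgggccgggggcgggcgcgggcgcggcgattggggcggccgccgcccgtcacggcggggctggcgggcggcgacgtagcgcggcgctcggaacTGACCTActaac

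Ciart and Cry1 both carry an E-box here and peaked in different windows. Of the other clock genes searched, Bhlhe41, Tef and a start of Per1 also held an E-box. No match to any of the 3 elements was found for Arntl, Arntl2, Npas2, Clock, Rora, Nr1d1, Nr1d2, Dbp, Hlf or Cry2. Bases outside this window were not searched. Of the 19573 genes tested, 12351 matched a promoter by symbol, and 9.34% of these held an E-box, 1.86% a D-box and 5.53% an RRE core in the same 250 bases. Among called genes with a range of at least 1 log2, the E-box was held by 26 of 152 promoters for peaks around CT8 (17.1%) and 16 of 118 around CT12 (13.6%), and by 10.2% around CT20, 9.09% around CT4, 8.93% around CT0 and 6.51% around CT16. The D-box was held by 8 of 118 promoters around CT12 (6.78%), 3.9% around CT20, 2.96% around CT16, 2.68% around CT0, 1 of 152 around CT8 and 0 of 99 around CT4. The RRE core was held by 10 of 112 promoters around CT0 (8.93%) and 18 of 205 around CT20 (8.78%), 6.78% around CT12, 6.06% around CT4, 5.92% around CT16 and 5 of 152 around CT8 (3.29%). These shares are descriptions of letters in a fixed window, and binding was not measured.

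Known output genes of the clock followed in the late day. Of 17 on the list, 14 were called (82.4%, against 27.4% of all genes), 10 with peaks in the windows around CT8 and CT12 (12 of the 14 were called without each single library). Alas1 (ENSMUSG00000032786.17), the rate-limiting enzyme of heme synthesis in liver, had levels in CPM of 86.4, 126 and 116 at CT0, 290.2, 636 and 244 at CT4, 1203, 1298 and 962 at CT8, 1264, 897 and 747 at CT12, 208, 232 and 180.5 at CT16 and 83.7, 160.1 and 111 at CT20. The 6 libraries of CT8 and CT12 were the highest of the 18 and overlapped with no other time. Its range was 3.74 ± 0.26 log2 at CT9.34 ± 0.270 h (edgeR adjusted p = 2.43e-06). Usp2, a deubiquitinating enzyme, had a range of 5.09 ± 0.37 log2 at CT11.1, and Noct, a circadian phosphatase also known as Nocturnin, 3.21 ± 0.39 log2 at CT11.0. Wee1, a kinase that holds cells before mitosis, rose from 5.75 ± 0.733 CPM at CT0 to 33.5 ± 5.61 CPM at CT12 (2.76 ± 0.11 log2, peak CT10.7). Nampt, which makes the precursor of NAD, had a range of 1.40 ± 0.14 log2 at CT10.4.

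Of 42 detoxification genes, a list that includes Alas1, 15 were called (35.7%, against 27.4% of all genes), 6 around CT8, 3 around CT12 and 3 around CT16. Cyp2a5, a coumarin hydroxylase, rose from 274 ± 82.1 CPM at CT0 to 2129 ± 589.9 CPM at CT8 with a range of 3.09 ± 0.19 log2 at CT9.64. Por, the electron donor of microsomal cytochromes P450, peaked at CT9.44 (2.17 ± 0.21 log2). Cyp2a4 had a range of 3.78 ± 0.77 log2 at CT9.83, with 20.5 to 1793 CPM in males and 668 to 3324 CPM in females. It is a close paralog of Cyp2a5, between which reads can be split. Ces1d, a carboxylesterase, peaked later at CT14.6 (2.21 ± 0.37 log2).

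Genes of fatty acid oxidation gathered in the second part of the day, while the synthesis genes fell into a day and a night group. Of 32 oxidation and PPAR alpha target genes, 15 were called (46.9%, against 27.4% of all genes), 9 of them around CT8 and 3 around CT12. Cpt1a (ENSMUSG00000024900.6), the gatekeeper of fatty acid entry into mitochondria, had levels in CPM of 327, 359 and 544 at CT0, 689.6, 715 and 702 at CT4, 609, 935 and 609 at CT8, 688, 621 and 427 at CT12, 274, 270.4 and 226 at CT16 and 287, 252 and 231 at CT20. Every library of CT4, CT8 and CT12 lay above every library of CT16 and CT20. Its range was 1.73 ± 0.18 log2 at CT6.72 ± 0.398 h (edgeR adjusted p = 6.97e-05), close to Ppara, the receptor that drives these genes (0.86 log2 at CT7.39), and to Lpin2 (1.70 log2 at CT7.12). Lpin1, a phosphatidate phosphatase that also acts with PPAR alpha, had a range of 3.42 ± 0.40 log2 at CT10.0. Pdk4, which slows glucose oxidation, stood apart with a peak at CT22.7 (2.23 ± 0.45 log2), and its females were at 234, 132 and 119 CPM at CT0, CT4 and CT20, where no male exceeded 33.7 CPM.

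Of 20 genes of fatty acid synthesis and modification, 8 were called (40%, against 27.4% of all genes), 4 with peaks around CT20 and 4 around CT4 or CT8. Fads2, the delta-6 desaturase, had a range of 1.87 ± 0.15 log2 at CT8.45, from 535 ± 34.4 CPM at CT20 to 1649 ± 199 CPM at CT8, and Elovl5, an elongase of polyunsaturated fatty acids, 0.95 ± 0.13 log2 at CT3.97. In the night group Agpat2, an acyltransferase of phospholipid and triglyceride synthesis, had a range of 1.27 ± 0.17 log2 at CT19.6. Elovl3, an elongase higher in male liver, had a fitted range of 3.91 ± 1.09 log2 at CT21.7, with 0.590 to 184 CPM in males and at most 1.36 CPM in females, and its call was lost without any 1 of 13 of the 18 libraries (edgeR adjusted p of at most 0.102). Fasn, fatty acid synthase, and Srebf1, the regulator of the pathway, were not called (ranges 1.19 and 0.58 log2, edgeR adjusted p = 0.361 and 0.162). Fasn spread from 379 to 2933 CPM among the libraries of CT8 alone.

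Of 26 cholesterol synthesis genes, 1 was called for a 24 h rhythm on this diet (3.85%, against 27.4% of all genes), with a median range of 0.59 log2 against 0.45 log2 for all genes tested, and with library totals alone 2 were called. The called gene was Insig2 (ENSMUSG00000003721.15), whose protein holds the SREBP factors in the endoplasmic reticulum (ER). It had levels in CPM of 253, 263 and 364 at CT0, 189.8, 186 and 196 at CT4, 80.7, 89.3 and 97.6 at CT8, 93.6, 77.3 and 107 at CT12, 137, 116 and 169 at CT16 and 312, 262 and 241 at CT20, with the libraries of CT8 and CT12 below all others and those of CT0 and CT20 above all others. Its range was 1.92 ± 0.12 log2 at CT22.6 ± 0.241 h (edgeR adjusted p = 7.89e-07). Of 23 apolipoprotein and VLDL assembly genes 2 were called (8.7%), Scarb1 (0.48 log2 at CT1.70) and Abca1 (0.56 log2 at CT20.2), and with library totals alone 5 were called. Apob and Mttp, which build VLDL, had ranges of 0.26 and 0.06 log2 (edgeR adjusted p = 0.283 and 0.954).

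Of 20 bile acid genes 8 were called (40%, against 27.4% of all genes), 6 of them around CT0 and CT4. Abcb11, the bile salt export pump, had a range of 1.39 ± 0.16 log2 at CT22.7, with 1099.6 ± 144 CPM at CT0 and 404 ± 156 CPM at CT12. Hsd3b7, an early enzyme of bile acid synthesis, peaked at CT0.953 (1.38 ± 0.18 log2) and Abcg8, of the sterol exporter of the canalicular membrane, at CT4.29 (1.90 ± 0.29 log2). Cyp7a1, the rate-limiting enzyme of bile acid synthesis, peaked at CT13.6 (2.09 ± 0.55 log2, edgeR adjusted p = 0.0314), in the early night, and lost its call without any 1 of 7 libraries, MCD CT0 1, CT0 3, CT4 1, CT4 3, CT12 3, CT16 1 or CT16 3.

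Genes of glycogen and glucose metabolism were spread over the day, with 11 of 23 called (47.8%, against 27.4% of all genes). Gys2 (ENSMUSG00000030244.8), the liver glycogen synthase, had levels in CPM of 93.1, 97.8 and 99.8 at CT0, 176, 246 and 215 at CT4, 359, 516 and 269 at CT8, 373, 245 and 239.8 at CT12, 143, 111 and 103 at CT16 and 93.8, 96.4 and 89.5 at CT20, and its 6 libraries of CT8 and CT12 lay above all those of CT0, CT16 and CT20. It peaked at CT8.72 ± 0.298 h with a range of 2.18 ± 0.17 log2 (edgeR adjusted p = 5.98e-06). The glycogen-targeting subunits of protein phosphatase 1 peaked at other times. Ppp1r3b did so at CT15.8 (2.21 ± 0.45 log2) and Ppp1r3c at CT20.0 (2.97 ± 0.39 log2). Ppp1r3g had a fitted peak at CT5.11 with 5.88 ± 3.01 CPM at CT8, and lost its call without MCD CT4 2, CT4 3, CT8 1, CT8 2, CT16 2, CT16 3, CT20 2 or CT20 3 (edgeR adjusted p of at most 0.0938). The gluconeogenic enzymes Pck1 and G6pc were not called (ranges 1.56 and 1.29 log2, edgeR adjusted p = 0.154 and 0.0996).

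Of 26 genes of methionine, methyl transfer and choline metabolism, the nutrients this diet lacks, 18 were called (69.2%, against 27.4% of all genes), 14 of them with peaks in the windows from CT12 to CT20. Without each single library in turn 15 remained called. Chka (ENSMUSG00000024843.16), choline kinase alpha, which starts phosphatidylcholine synthesis from choline, had levels in CPM of 247, 164 and 239 at CT0, 118, 64.0 and 86.1 at CT4, 17.9, 24.8 and 24.1 at CT8, 35.6, 48.3 and 55.2 at CT12, 175, 184 and 247 at CT16 and 202, 263 and 277 at CT20. The 3 libraries of CT8 were the lowest of the 18, and those of CT0, CT16 and CT20 lay above all others. Its range was 3.50 ± 0.19 log2 at CT20.7 ± 0.213 h, an 11.3-fold change (edgeR adjusted p = 2.76e-07). Near it peaked Bhmt, which remethylates homocysteine with betaine (1.65 ± 0.36 log2 at CT21.3). Cbs, the entry to transsulfuration, peaked at CT23.5 (1.36 ± 0.12 log2). Mat2a, the methionine adenosyltransferase that rises when methionine is short, had a range of 0.88 ± 0.16 log2 at CT16.4, while Mat1a, the form of adult liver, was not called (range 0.33 log2, edgeR adjusted p = 0.213). Mat2a overlaps a gene on the opposite strand.

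Of 34 genes of amino acid catabolism and the urea cycle, 19 were called (55.9%, against 27.4% of all genes), 6 around CT12 and 6 around CT16. Tat, tyrosine aminotransferase, had a range of 1.59 ± 0.30 log2 at CT16.0, and Afmid, of tryptophan breakdown, 1.56 ± 0.23 log2 at CT15.0. Sds, serine dehydratase, peaked earlier at CT9.26 (1.63 ± 0.34 log2) and Ddc, dopa decarboxylase, later at CT21.7 (1.27 ± 0.17 log2). Cps1, the first enzyme of the urea cycle, had a small range of 0.58 log2 at CT15.6 and lost its call without any 1 of 14 libraries. Tdo2 was not called (0.42 log2, edgeR adjusted p = 0.299).

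**Figure D3:**
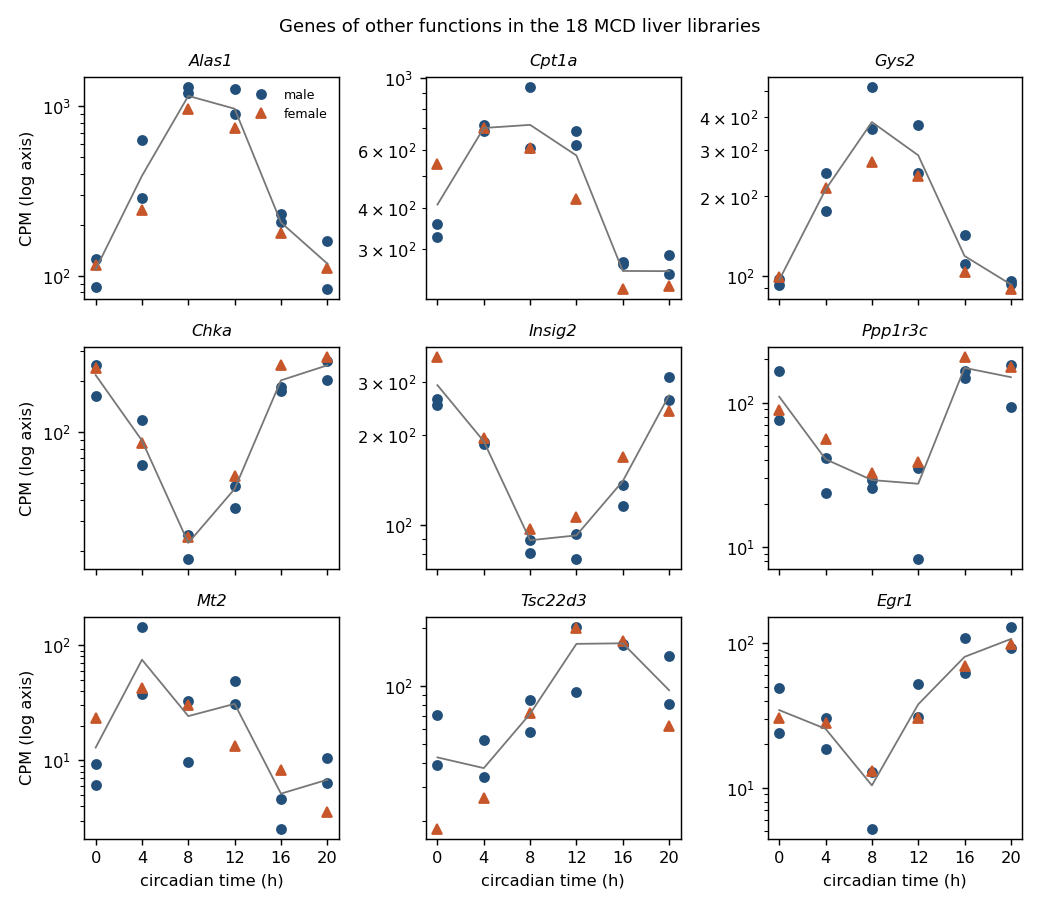
CPM (vertical log axes) of 9 genes of other functions against circadian time in h (horizontal axes) in the 18 MCD libraries, with males as circles, females as triangles and lines through the means of the 3 libraries of a time. Alas1, Cpt1a and Gys2 are high from CT4 or CT8 to CT12, Chka and Insig2 are lowest at CT8 or CT12, and Ppp1r3c, Tsc22d3 and Egr1 are high at CT16.

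Parts of the machinery of protein synthesis differed in their fitted peaks. Of 78 cytosolic ribosomal protein genes 61 were called (78.2%, against 27.4% of all genes), 54 around CT8 and 7 around CT12, with a median range of 0.35 log2 over all 78. Rps23 (0.81 log2 at CT9.60), Rpl3 (0.58 at CT7.69), Rplp2 (0.56 at CT9.15) and Rps27a (0.56 at CT9.18) had the largest ranges among those called. The calls depended on the scaling between libraries more than the ranges did. With library totals alone these 4 ranges were 0.83, 0.62, 0.60 and 0.59 log2, while 37 of the 78 were called, 36 of them around CT8, and with TMM scaling 43 were called without each single library. Rps27a lost its call without MCD CT8 2, CT8 3, CT20 2 or CT20 3. Ribosomal protein genes have many processed copies in the genome that can take part of their reads. The mean of the 78 genes was 0.22 ± 0.19 log2 above its daily mean at CT12 and 0.15 ± 0.10 log2 below it at CT20.

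Of 35 ribosome biogenesis genes 11 were called (31.4%, against 27.4% of all genes), with peaks in 5 of the 6 windows, among them Npm1 (0.58 log2 at CT6.47), Fbl (0.46 at CT7.22) and Nop2 (0.63 at CT13.7). With library totals alone 6 of the 35 were called. The call of Nop58 (0.50 log2 at CT1.03) was lost without any 1 of 13 libraries, and that of Rrs1 (0.49 log2 at CT12.9) without MCD CT0 1, CT0 3, CT4 1, CT4 3, CT8 3, CT12 1, CT12 3 or CT20 1. Most called aminoacyl-tRNA synthetases, which load amino acids onto tRNA, had fitted peaks in another part of the day. Of 20, 14 were called (70%, against 27.4% of all genes), 7 around CT20, 4 around CT0, 2 around CT8 and 1 around CT4. Tars had a range of 1.12 ± 0.12 log2 at CT21.5, and Yars, Cars and Aars had 0.87, 0.74 and 0.69 log2 at CT18.7, CT19.5 and CT18.9.

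Folding and transport in the ER followed at the end of the night and in the morning. Of 24 ER folding genes 10 were called (41.7%, against 27.4% of all genes), 5 around CT0 and 3 around CT20. Hspa5, the main ER chaperone, was at 1084 ± 414 CPM at CT20 and 515 ± 75.7 CPM at CT12 (1.02 ± 0.20 log2 at CT22.3). The ER chaperones and cofactors Hspa13, Dnajb9 and Manf peaked at CT22.3, CT21.7 and CT22.5 with ranges of 1.20, 1.09 and 1.09 log2, and Manf lost its call without any 1 of 9 libraries. Herpud1, of ER-associated degradation, peaked apart from them at CT11.5 (1.32 ± 0.25 log2). Of 31 ER translocation and vesicle transport genes 22 were called (71%), 10 around CT0, 8 around CT4, 4 around CT8 and none in the other windows. The largest ranges were those of Sec24d (0.78 log2 at CT1.98), Sec23b (0.78 at CT23.1), Sec61a1 (0.74 at CT1.75) and Srpr (0.64 at CT5.00).

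Most called proteasome and autophagy transcripts peaked in the first part of the day. Of 32 proteasome genes 28 were called (87.5%, against 27.4% of all genes), 17 around CT4 and 9 around CT8, and 19 were called without each single library. Psma5 had a range of 0.89 ± 0.11 log2 at CT4.22, Psmd1 0.67 ± 0.11 log2 at CT4.74 and Adrm1, a ubiquitin receptor of the particle, 0.69 ± 0.15 log2 at CT2.84. Psmd11 had its peak at CT22.1 (0.76 ± 0.07 log2), away from most others. Of 28 autophagy and lysosome genes 16 were called (57.1%, against 27.4% of all genes), 8 around CT4 and 5 around CT8. Sqstm1 (p62), the receptor for ubiquitinated cargo, was at 971 ± 75.8 CPM at CT4 and 357 ± 55.7 CPM at CT16 (1.37 ± 0.16 log2 at CT2.66). Gabarapl1 and Wipi1, of autophagosome formation, had ranges of 1.35 and 1.11 log2 at CT3.11 and CT4.03, and Bnip3, a mitophagy receptor, 1.38 log2 at CT9.41. Ulk1, the initiating kinase, had 0.58 log2 at CT2.58 and lost its call without MCD CT4 3. Tfeb, a regulator of lysosomal genes, peaked at CT13.5 (0.66 log2).

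Of 21 cytosolic heat shock genes 15 were called (71.4%, against 27.4% of all genes), 6 around CT12 and 7 around CT16. Hsp90aa1 was at 113 ± 12.5 CPM at CT4 and 264 ± 45.1 CPM at CT16 (1.21 ± 0.24 log2 at CT14.9), and Hsph1 had a range of 1.28 ± 0.26 log2 at CT14.8. Hspa8, the constitutive member of the HSP70 family, peaked at CT10.4 (0.97 ± 0.17 log2). Hspb1 (1.47 log2 at CT12.8) lost its call without MCD CT0 2 or CT12 1, and Hspa1a (1.35 log2 at CT12.9) without any 1 of 11 libraries. Of 4 cold-inducible genes 3 were called (75%), Cirbp at CT2.67 (1.03 ± 0.24 log2), Rbm3 at CT7.68 (1.08 ± 0.14 log2) and Sf3b1 at CT3.46 (0.29 log2). Cirbp lost its call without MCD CT16 3 and Sf3b1 without MCD CT4 3.

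**Figure D4:**
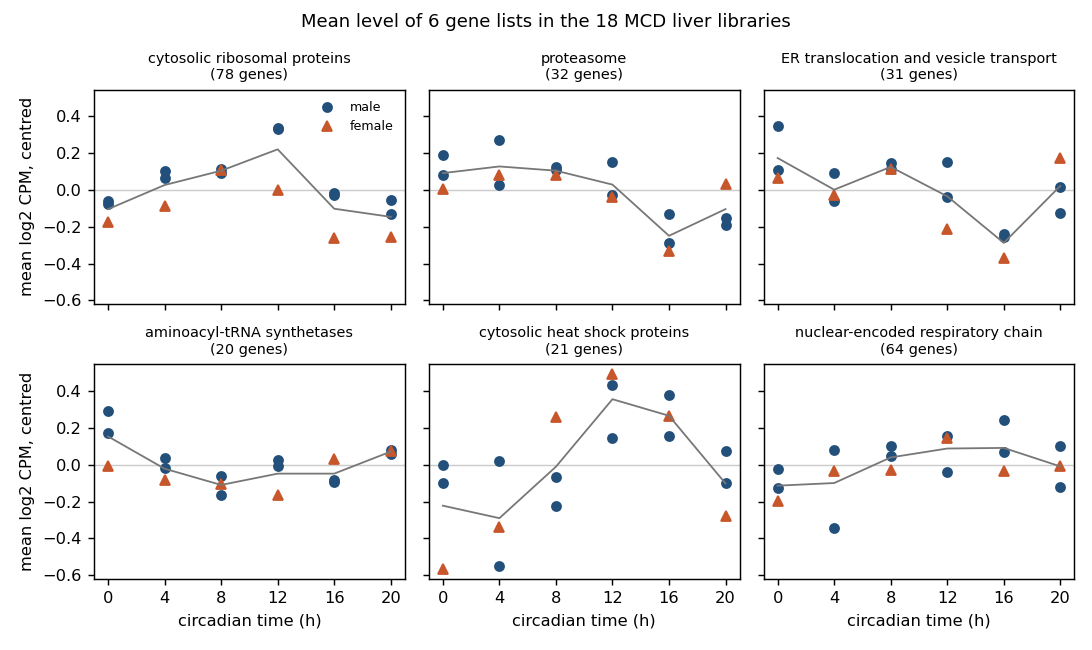
Mean log2 CPM of all tested genes of 6 lists, centred on each gene's mean over the 18 MCD libraries (vertical axis, after adding 0.25 CPM), against circadian time in h (horizontal axis). Circles are males, triangles females and lines join the means of the 3 libraries of a time. The 21 heat shock genes are highest at CT12 (0.36 ± 0.19) and CT16 (0.27 ± 0.11), the 32 proteasome genes are lowest at CT16 (-0.25 ± 0.11), and the 20 aminoacyl-tRNA synthetases are highest at CT0 (0.15 ± 0.15).

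Of 64 nuclear-encoded respiratory chain genes 7 were called (10.9%, against 27.4% of all genes), 6 of them around CT12, and 21 were called with library totals alone. Ndufb10 had a range of 0.46 ± 0.10 log2 at CT12.3, and Cycs (0.45 log2 at CT12.1), cytochrome c, lost its call without any 1 of 14 libraries. Ndufa5 (0.52 log2 at CT14.3) lost its call without MCD CT0 1, CT0 3, CT4 1, CT12 1, CT12 3, CT16 1 or CT16 2, and Ndufa11 (0.36 log2 at CT12.7) without MCD CT0 3. Of 13 mitochondrially encoded genes 3 were called, mt-Nd2 at CT4.19 (1.19 ± 0.25 log2), mt-Nd3 at CT17.2 (1.34 ± 0.34 log2) and mt-Nd4l at CT19.1 (0.53 ± 0.14 log2). The calls of mt-Nd3 and mt-Nd4l were lost without any 1 of 9 and 11 libraries. With the kind of library, by mt-Nd6, as a term in the fit all 3 stayed called (edgeR adjusted p = 0.0123, 0.0316 and 0.0422).

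Genes that respond to glucocorticoids, whose level rises before the active phase, were called for 12 of 18 (66.7%, against 27.4% of all genes), but with peaks from CT6.20 to CT19.2. Tsc22d3, a glucocorticoid-induced factor, had levels in CPM of 39.2, 70.9 and 18.3 at CT0, 33.7, 52.9 and 26.3 at CT4, 85.3, 58.1 and 72.7 at CT8, 203, 92.9 and 202 at CT12, 163, 166 and 172 at CT16 and 81.0, 143 and 61.9 at CT20. The libraries of CT16 and 2 of 3 at CT12 lay above all others, and its range was 2.47 ± 0.36 log2 at CT14.4 ± 0.552 h (edgeR adjusted p = 0.000881). Fkbp5, a cochaperone of the receptor, peaked at CT10.6 (1.70 ± 0.20 log2), and the metallothioneins Mt1 and Mt2 at CT7.09 and CT6.20 (2.70 ± 0.53 log2 and 3.30 ± 0.64 log2), with Mt2 at 37.6 to 145 CPM at CT4 and 2.55 to 8.23 CPM at CT16. Of 17 immediate-early genes 8 were called (47.1%, against 27.4% of all genes), 6 around CT16 and CT20, and with library totals alone 4 were called. Egr1 had levels in CPM of 48.6, 24.1 and 30.4 at CT0, 30.2, 18.5 and 27.9 at CT4, 5.20, 12.9 and 13.004 at CT8, 30.8, 52.1 and 30.2 at CT12, 62.2, 109 and 69.7 at CT16 and 91.8, 129.6 and 98.7 at CT20, with the libraries of CT16 and CT20 above all others, and had a range of 2.93 ± 0.32 log2 at CT18.6 ± 0.413 h (edgeR adjusted p = 0.000106). Dusp1, a phosphatase of MAP kinases, peaked at CT15.6 (1.75 ± 0.24 log2), Ier3 at CT6.11 (1.37 ± 0.32 log2), and Fosb (1.84 log2 at CT17.9) lost its call without any 1 of 13 libraries.

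Of 24 amino acid stress genes 10 were called (41.7%, against 27.4% of all genes), 5 around CT20. Ddit4, an inhibitor of mTORC1, had a range of 2.91 ± 0.61 log2 at CT18.2, Mthfd2, a mitochondrial folate enzyme, 1.58 ± 0.31 log2 at CT18.6, and Cebpb, a bZIP factor, 1.47 ± 0.20 log2 at CT9.37. Nupr1 (2.00 log2 at CT0.496) lost its call without MCD CT0 1, CT0 3 or CT12 3. The central factor Atf4 and its target Asns were not called (ranges 0.51 and 0.23 log2, edgeR adjusted p = 0.150 and 0.920). Of 21 NRF2 target and glutathione genes 11 were called (52.4%, against 27.4% of all genes), 4 around CT4 and 4 around CT8. Srxn1, Nqo1 and Gsr, which repair or prevent oxidative damage, peaked at CT5.40, CT7.83 and CT5.03 with ranges of 1.42, 1.36 and 0.82 log2, and Osgin1 at CT20.9 (1.61 log2). Gclc, the rate-limiting enzyme of glutathione synthesis, had 0.57 log2 at CT23.2 and lost its call without MCD CT0 2, CT0 3 or CT8 3, and Nfe2l2, which encodes NRF2, was not called (0.37 log2, edgeR adjusted p = 0.0630).

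Of 31 cell cycle and DNA replication genes 14 were called (45.2%, against 27.4% of all genes), 4 around CT8 and 6 around CT12, and with library totals alone 9 were called. Ccne1, cyclin E1, had a range of 1.87 ± 0.28 log2 at CT9.41, and Ccnd1, cyclin D1, 1.44 ± 0.26 log2 at CT6.00. The stress-induced inhibitors of the cycle lay at night, Gadd45a at CT20.0 (1.98 ± 0.40 log2) and Cdkn1a at CT19.2 (1.71 ± 0.43 log2), the latter with a call lost without MCD CT8 1, CT8 2, CT16 2, CT16 3, CT20 1 or CT20 2. Of 31 splicing regulators 11 were called (35.5%, against 27.4% of all genes), 6 around CT4. Hnrnpl was at 147 ± 21.3 CPM at CT4 and 56.1 ± 4.69 CPM at CT16 (1.41 ± 0.15 log2 at CT3.32). Hnrnpd and Hnrnpdl had ranges of 0.70 and 0.64 log2 at CT4.83 and CT4.19, and Tra2a peaked on the other side of the day at CT15.3 (0.69 log2).

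Secreted proteins of the blood included both called and uncalled genes. Of 26 acute phase genes 12 were called (46.2%), 5 around CT0, and of 38 complement and coagulation genes 9 (23.7%, against 27.4% of all genes). Apcs, serum amyloid P, had a range of 1.06 ± 0.24 log2 at CT2.54, and Il6ra and Cebpd, of the signalling that controls the response, 1.49 and 1.42 log2 at CT11.0 and CT10.3. The inducible proteins Saa1 and Saa2 were not called (ranges 0.26 and 0.34 log2, edgeR adjusted p = 0.833 and 0.708). Called genes of the coagulation list included Serpinf2 (0.87 log2 at CT0.948), Klkb1 (0.72 at CT1.82) and F11 (0.61 at CT5.73). C3, the central complement factor, had a range of 0.04 log2 (edgeR adjusted p = 0.942). Of 24 iron and heme genes 11 were called (45.8%, against 27.4% of all genes). Hjv, a coreceptor upstream of hepcidin, peaked at CT19.8 (1.02 ± 0.09 log2), Uros, of heme synthesis, at CT18.3 (0.98 ± 0.14 log2) and Hamp, hepcidin itself, at CT16.9 (0.74 ± 0.19 log2), a call lost without MCD CT4 2, CT8 2, CT8 3, CT16 2, CT16 3 or CT20 2. Tfrc, the transferrin receptor, was not called (0.47 log2, edgeR adjusted p = 0.281). Of 25 growth hormone and sex-biased genes 6 were called (24%), among them Igf1 (0.88 ± 0.17 log2 at CT8.50) and Onecut1 (1.59 ± 0.38 log2 at CT9.96). Socs2 (2.22 log2 at CT4.91) lost its call without MCD CT4 1, CT4 2, CT16 2, CT16 3 or CT20 2, and Ghr, the receptor, was not called (0.19 log2, edgeR adjusted p = 0.822).

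**Figure D5:**
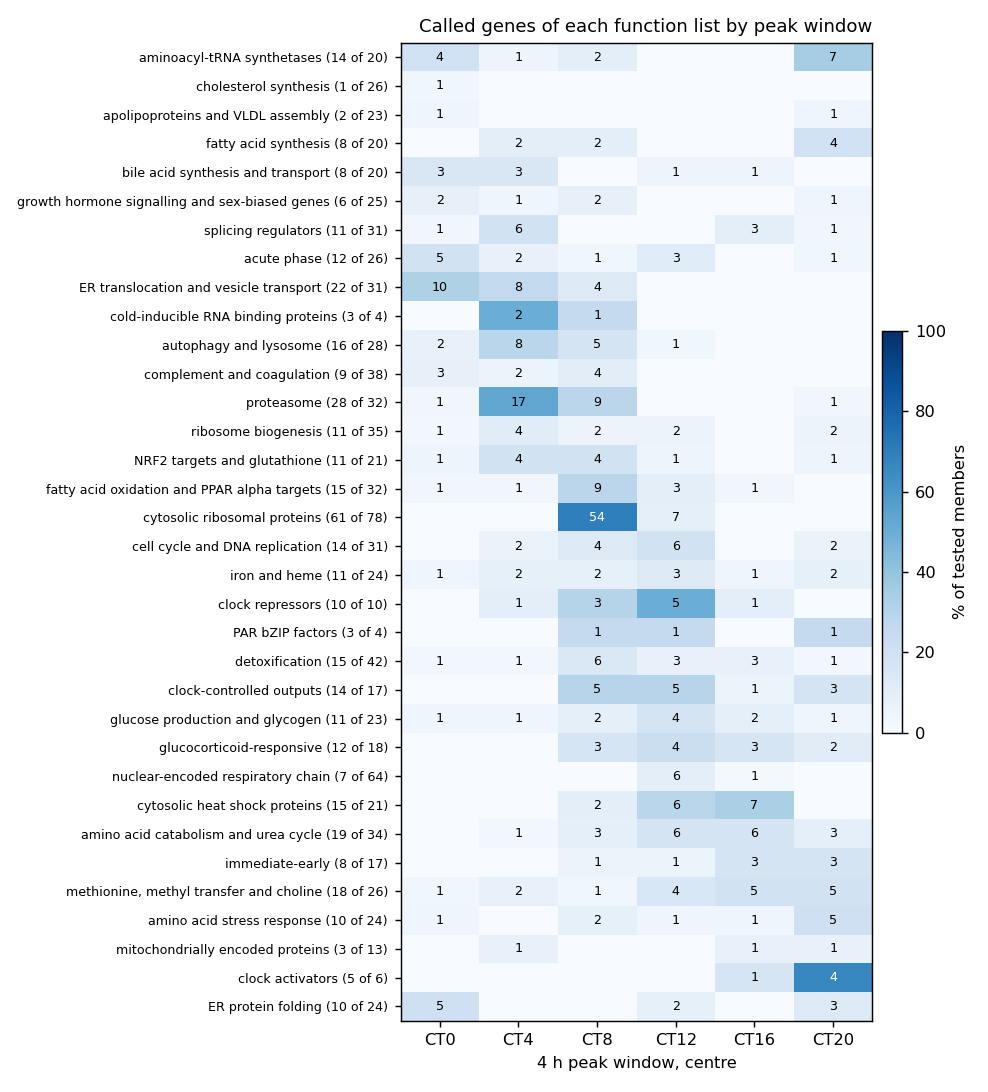
Number of called genes of each function list (rows, with called of tested genes in brackets) by 4 h peak window (columns, centre of the window). Shading gives the share of the tested members of a list. The darkest cells are those of cytosolic ribosomal proteins around CT8 (54 of 78) and clock activators around CT20 (4 of 6).

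The genes with the largest ranges in each window, at a mean of at least 5 CPM, were partly outside these lists. Around CT0 they were Loxl4 (2.85 ± 0.22 log2 at CT22.0), Bhlha15 (2.63 ± 0.59 log2 at CT22.0), Ndrg1 (2.56 ± 0.19 log2 at CT22.7) and the gene model Gm36041 (2.50 ± 0.29 log2 at CT22.7). Bhlha15 encodes MIST1, a factor of secretory cells. Around CT4 they were Nr1d1, Phospho1 (3.20 ± 0.51 log2 at CT3.47), Fbxo21 (2.55 ± 0.34 log2 at CT3.94) and Unc93a2 (2.43 ± 0.38 log2 at CT2.83). Around CT8 they were Dbp, Ciart, Cyp2a4 and Alas1 and around CT12 Per3, Usp2, Lpin1 and Tef, all described above. Around CT16 they were H3c14, mt-Tr, mt-Tg and Cry1, and around CT20 Npas2, Slc34a2, Mup-ps18 and Arntl. Slc34a2, a phosphate transporter, had a range of 6.21 ± 1.02 log2 at CT19.8, with 1 library of CT8 at 0. H3c14, a histone gene, was at 0.0241 to 0.0345 CPM in the 6 libraries of CT4 and CT8 and at 15.1 to 38.8 CPM at CT16, and in CT20 3 and CT0 1 at 0.0862 and 0.0311 CPM, so that its fitted range rests on counts near 0. The mitochondrial tRNA genes mt-Tr and mt-Tg (5.84 log2 at CT16.6 and 5.19 log2 at CT16.2) lost their calls without MCD CT4 1, CT4 2 or CT4 3, and Mup-ps18 without any 1 of 15 libraries.

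Markers of other cell types are set against the 27.4% of all genes called. Called were 1 of 10 macrophage markers, Cd163 (1.31 ± 0.28 log2 at CT14.7), 0 of 9 stellate cell markers, 2 of 10 endothelial markers, Gpr182 (0.63 log2 at CT15.8) and Stab2 (0.32 log2, lost without any 1 of 17 libraries), 0 of 5 erythrocyte, 0 of 3 neutrophil and 0 of 2 pancreas markers, and 1 of 6 hepatocyte markers, Tat. Of 5 cholangiocyte markers 2 were called (40%), Krt7 (1.03 log2 at CT11.3) and Sox9 (1.83 ± 0.16 log2 at CT19.5). Of 7 lymphocyte markers 3 were called (42.9%), all of them B cell genes, among them Cd79a (CT1.54) and Ms4a1 (CT1.66). Cd79a had a range of 1.92 log2 and lost its call without any 1 of 9 libraries. The summed lymphocyte markers were at 1.66 to 10.2 CPM over the 18 libraries, with means from 2.28 CPM at CT16 to 6.75 CPM at CT4. With library totals alone 3 of 6 hepatocyte and 1 of 5 cholangiocyte markers were called. The part of other cell types in these rhythms was not tested.

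No gene was called for a difference in rhythm between the sexes on MCD by edgeR (0 of 19573, 0%), where the female rhythm rests on 6 libraries. An unadjusted p under 0.05 was found for 914 genes, DESeq2 called 48 and limma 0. In males alone 2534 genes were called rhythmic, of which 2443 were among the 5365. Among the genes named here Hsph1 had the smallest unadjusted p, and its edgeR adjusted p was 0.839. Its fitted peaks were CT16.5 in males and CT12.9 in females. Those of Hsp90aa1 were CT16.6 and CT12.8, of Lpin2 CT8.49 and CT4.24 and of Cpt1a CT7.46 and CT5.29. Noct had the later peak in females (CT10.3 and CT11.9), and Tef had CT10.2 and CT10.0. Peaks given elsewhere are of both sexes together. In males alone 11.2% of called genes peaked around CT16, 26.5% around CT8 and 28.2% around CT20. In all 18 libraries these shares were 18.4%, 19.7% and 20.7%.

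Against the control diet, the rhythm of 986 of 20249 genes differed (4.87%) by edgeR's test of the difference in both components, and 820 of these were called rhythmic on MCD. Without the control CT8 library that goes against its label (a) 1243 of 20669 genes were called (6.01%), of which 909 were shared. The count was 634 without control CT4 2 and 652 without MCD CT16 2, and it fell to 5, 4 and 537 without replicate 1, 2 and 3. Among the clock genes, Arntl (CT20.2 against CT21.7, edgeR adjusted p = 0.0269), Nfil3 (CT19.1 against CT21.1, 0.0155), Tef (CT10.2 against CT11.4, 0.0205) and Ciart (CT9.74 against CT11.4, 0.0278) differed, where times are the peaks on MCD against control in the fit of both diets. Arntl lost this call without control CT4 1, CT4 2 or CT16 1 or MCD CT4 2 (edgeR adjusted p of at most 0.0640), and Ciart without control CT4 1, CT4 2 or CT16 3 or MCD CT4 2 or CT16 1 (at most 0.0682). The difference was not called for Dbp (CT8.60 against CT9.26, edgeR adjusted p = 0.339), Nr1d1 (CT5.59 against CT6.91, 0.0949), Per1 (CT10.5 against CT13.4, 0.0540), Per2 (CT12.8 against CT14.4, 0.510) and Cry1 (CT17.7 against CT18.2, 0.129). Of 16 clock genes called rhythmic on both diets, the fitted peak was earlier on MCD for 15 and later for Cry2, with a median difference of -1.27 h (-1.10 h without control CT8 a). Without control CT8 a these calls stood for Arntl (0.0384), Nfil3 (0.0176), Tef (0.0159) and Ciart (0.0314), and Nr1d2 passed as well (edgeR adjusted p = 0.0492, against 0.0601 with it). Dbp (0.375), Nr1d1 (0.106), Per1 (0.0707), Per2 (0.656) and Cry1 (0.0539) did not pass in either fit. A common shift of these genes was not tested.

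Several metabolic genes with large ranges on MCD also differed between the diets. Alas1 peaked at CT9.33 against CT12.7 with ranges of 3.78 against 3.31 log2 (edgeR adjusted p = 0.00888), Gys2 at CT8.70 against CT11.4 (2.16 against 1.55 log2, 0.00546) and Cpt1a at CT6.71 against CT9.90 (1.72 against 1.28 log2, 0.00842). Fads2 peaked at CT8.46 against CT11.7 (1.90 against 1.11 log2, 0.0156) and Lpin1 at CT9.99 against CT13.5 (3.45 against 2.40 log2, 0.0205). Without control CT8 a the edgeR adjusted p-values of Alas1, Gys2, Cpt1a, Fads2 and Lpin1 were 0.0136, 0.00667, 0.00637, 0.00924 and 0.0311. These 5 genes kept the call without each of the 36 libraries in turn. Elovl5 did so too, but peaked later on MCD, at CT3.94 against CT23.3, with the smaller range (0.95 against 1.54 log2, edgeR adjusted p = 0.00562). Mat2a also peaked later, at CT16.5 against CT11.7 (0.88 against 0.59 log2, 0.0236), and lost its call without MCD CT20 2. Without control CT8 a the edgeR adjusted p-values of Elovl5 and Mat2a were 0.00332 and 0.0243. For Chka (CT20.7 against CT21.8, edgeR adjusted p = 0.285), Insig2 (CT22.6 against CT23.0, 0.942) and Bhmt (CT21.4 against CT20.7, 0.860) the difference did not pass, nor did it without control CT8 a (edgeR adjusted p = 0.276, 1.00 and 0.591).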

How the data were processed

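Liver RNA-seq libraries of mice on the MCD and the control diet were analysed. The authors deposited 1 table of raw read counts per gene, whole numbers that sum to different totals. Trimmomatic, HISAT2, StringTie, DESeq2 and build GRCm39 are named in the submitters' processing notes, without versions or roles, and the strand setting of the counting is not given in the sources used here. Of 179 genes named, 54 overlap exons of a gene on the opposite strand (GENCODE M21), among them Arntl, Nr1d1, Dbp, Tef, Usp2, Alas1, Chka, Bhmt, Mat2a and Sqstm1, whose reads may be shared. Gene names are those of the table.

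Counts of the 18 MCD libraries were filtered (edgeR's filterByExpr, minimum count 10), scaled by TMM and fitted with edgeR's robust quasi-likelihood model (edgeR 4.0.16, limma 3.58.1, DESeq2 1.42.0, R 4.3.3), with a mean per time and a term for sex. The cosine and sine contrast of the 6 means (period 24 h) was tested jointly with Benjamini-Hochberg adjustment over all genes tested. The diets were compared in 1 fit of 36 libraries, and the sexes by sex-specific components within the 18. Totals per library (55.5 to 86.7 M) leave counting error small beside the spread between libraries, and replicates of a time differed by more than sampling noise (chi-square per degree of freedom of at least 29.3). Of the 36 columns 2 carry the same name, that of a control male at CT8, so neither could be given a replicate number, and they are called a and b.

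The members and gene lists were chosen with earlier results of these data known. Named are all clock genes, up to 4 called members with the largest range per list (mean of at least 1 CPM), the rate-limiting or defining members marked for each list, and the 4 largest ranges per window (mean of at least 5 CPM). Some genes that this rule names are not reported here. Krt7 and Ms4a1 were named after their values were seen. Alternatives were other scalings, no filter, DESeq2, limma, a term for the kind of library, the replicate number as a block, a cosinor fit, subsets of libraries and leaving out each library. The leave-one-out fits of the diet difference, other than that without control CT8 a, were added after seeing the data. The scripts were tested on simulated counts.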

Additional observations from a re-analysis of the deposited data

Results flagged for a closer look

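The 24 h rhythm of 43 of the 179 named genes differed between the MCD and the control diet by edgeR's test of the difference in both components (986 of 20249 genes in all, 4.87%). In 30 of them MCD had the higher fitted range, and in 13 the lower, a split that the choice of genes by their range on MCD favours. Of these, 38 were also called without control CT8 a, all but Hspa13, Rpl3, Onecut1, Hspa8 and Lpin2. The diets share no libraries, but all comparisons here use the same 36.

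In 22 genes the call held without each single library. Their edgeR adjusted p-values were, for clock and output genes, Wee1 (0.00282), Nfil3 (0.0155), Nampt (0.0197) and Tef (0.0205). For lipid, bile acid and sugar metabolism they were Gys2 (0.00546), Elovl5 (0.00562), Cpt1a (0.00842), Abcb11 (0.0139), Fads2 (0.0156) and Lpin1 (0.0205). For heme, sulfur amino acid and protein synthesis genes they were Cars (0.00208), Cbs (0.00323), Uros (0.00599), Alas1 (0.00888) and Yars (0.0113). For stress genes, RNA binding proteins and others they were Rbm3 (0.00599), Hnrnpl (0.00702), Hspb1 (0.00815), Ndrg1 (0.00960), Gadd45a (0.0121), Tra2a (0.0125) and Osgin1 (0.0174). Cpt1a had ranges of 1.72 against 1.28 log2 and peaks at CT6.71 against CT9.90 on MCD against control, Cbs 1.37 against 1.30 log2 and CT23.5 against CT2.03, and Cars 0.75 against 0.78 log2 and CT19.5 against CT2.73.

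The other 21 lost the call without at least 1 library (edgeR adjusted p in brackets, all libraries in). Mat2a (0.0236) lost it without MCD CT20 2. Dnajb9 (0.0277) lost it without control CT0 1, MCD CT0 1 or MCD CT12 1. Arntl (0.0269) and mt-Nd2 (0.0278) lost it without any 1 of 4 libraries, Ciart (0.0278) of 5, and mt-Tr (0.0273), Noct (0.0283) and Hjv (0.0304) of 7. Usp2 (0.0306), mt-Tg (0.0333) and Wipi1 (0.0347) did so without any 1 of 9. The remaining 10 lost it without any 1 of 13 to 28 of the 36 libraries: Gm36041 (0.0356), Hspa13 (0.0359), Bnip3 (0.0373), Rpl3 (0.0394), Por (0.0405), Onecut1 (0.0443), Adrm1 (0.0450), Hspa8 (0.0466), Sqstm1 (0.0471) and Lpin2 (0.0471). Of 31 named genes called on both diets and for the difference, the fitted peak was earlier on MCD in 27, with a median difference of -2.63 h. Over all 100 named genes called on both diets it was earlier in 88, with a median of -1.70 h, and no test of a common shift was made.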

How the results depend on the processing

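Without 1 replicate number the counts were 1793 to 2534 for a 24 h rhythm, 801 to 952 for a range of at least 1 log2, 214 to 851 for any difference among the times and 4 to 537 for the diet difference, in which the 2 control columns of the same name were kept. Males alone, the same libraries as without replicate 3, gave 2534 and 845. Single libraries left out gave 4409 to 5730, 1111 to 1393, 1997 (without MCD CT16 2) to 3062, and for the diet difference 634 (without control CT4 2) to 1243, with 652 without MCD CT16 2. The 13 libraries of low mt-Nd6 alone gave 3357 rhythmic genes and 1504 for any difference. DESeq2 gave 5535 for any difference among the times, 2016 for the diets and 48 for the sexes, and edgeR 0 for the sexes under 5 alternatives. The cause of these changes was not tested. Apart from the replicate block for the diets (651), all other alternatives stayed within 1.5 times the main counts, with 4605 (library totals alone) to 6721 (DESeq2) rhythmic genes.

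The difference between the males of number 1 and 2 had no common sign of correlation between times (15 correlations of -0.44 to 0.33). Number 3, the female, did not enter this check. With the replicate number as a block in place of sex, 5042 genes were rhythmic, 1224 with a range of at least 1 log2, 2589 differed among the times, 0 between the sexes, and 651 between the diets (without those 2 columns). Of 179 named genes, 160 were called and 129 of these kept the call without each single library. No named gene reversed in any setting. Calls were lost by 62, 48 and 48 named genes without replicate 1, 2 and 3, by 6 with library totals, 4 with a term for high or low mt-Nd6, 8 with the block and 38 in the low mt-Nd6 libraries.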

Other observations

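Histone genes were grouped by symbol after H3c14 was seen among the largest ranges. Of 74 tested, 36 were called (48.6%, against 27.4% of all genes), 23 around CT20, 12 around CT16 and 1 around CT12, with ranges from 0.74 to 10.89 log2. Several of the large ranges were at means under 1 CPM, such as H1f1 (3.64 log2 at 0.208 CPM) and H3c11 (3.58 log2 at 0.336 CPM). H3c15 had 3.78 log2 at 6.85 CPM and H1f2 1.44 log2 at 92.6 CPM. H2bc4 and H1f0 had 0.76 and 0.77 log2 at 98.2 and 122 CPM. Transcripts of replication-dependent histone genes lack a poly(A) tail, and members of the family are near-identical, so reads can be split between them. Of 22 mitochondrial tRNA genes 7 were called (31.8%), 6 around CT16. Of 2236 processed pseudogenes 306 were called (13.7%), 122 of them around CT8. All 3 groups were chosen after values were seen, and no test was made on them.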
